A study of Mus musculus with 9 samples.

Results

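The genes described here mark plasmacytoid dendritic cells, and they were followed in mouse marrow cultures that were turned towards eosinophils with interleukin 5 (IL-5). They were chosen by symbol: Siglech, Bst2, Ccr9, Cd7 and Ly6d, which encode surface proteins, and the transcription factor genes Tcf4, Spib and Runx2. Of these 8 genes, 7 were matched to a probe set of their own, with 1 probe set each, out of 19938 genes measured. No probe set carried the symbol Runx2 in the probe table used here, so that gene has no value. The choice was made with the values of these same arrays known, so the levels and differences of the 7 genes are a description, and no p-value is given for them.

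All samples were low-density bone marrow (LDBM) cells, the light marrow fraction that holds blood cell progenitors, from pooled Balb/c marrow. Every culture had been grown for 4 days with stem cell factor (SCF) and FLT3 ligand (FLT3L) at 100 ng/mL. The 3 groups were cells taken before IL-5, after 4 days of IL-5 and after 10 days of IL-5, with 3 arrays each and 9 in all. The marrow was pooled, and the labels do not name separate cultures for the arrays of a group, so p-values measure only the spread between these arrays, and that spread may be technical. No untreated time course is analysed here: IL-5, time in culture and any change in SCF and FLT3L cannot be told apart.

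Plasmacytoid dendritic cells are the dendritic cells that release large amounts of type I interferon when their endosomal Toll-like receptors meet nucleic acids. FLT3L drives their formation from marrow progenitors, and the E protein TCF4, also called E2-2, holds their identity while the inhibitor ID2 opposes it. Several of their genes are also used by early B cells or, in the case of Bst2, by many cells that sense interferon.

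Values are log2 signals per probe set, so a difference of 1 is a 2-fold change. The SEs of differences come from a limma fit that pools the spread of all 3 groups, so a wide day 10 spread also widens an SE at day 4. Genes outside the 7 are said to rise or fall when they changed at least 2-fold with an adjusted p below 0.05 in limma, and this pair of conditions is called the test. Array medians lay between 5.67 and 5.75, and correlations across genes were 0.991 to 0.996 between arrays of a group and 0.927 to 0.969 between groups. The lower quartile of mean signals over all genes was 4.66, which serves as a mark for dim genes. Of 10 eosinophil genes, the labelled lineage, 9 rose by day 4 and 10 by day 10, where 3.42% and 4.83% of all genes did. That list was chosen with earlier results of these arrays known, so the counts are a description. Other lists rose at day 4 too, with 10 of 14 monocyte and macrophage genes and 7 of 10 neutrophil genes. The day 10 arrays spread more than the others in myeloid and interferon genes. Array values are given for the 7 genes and, as means, for some gene lists. Changes of other single genes are given without them, also where the day 10 SD was wide, as for Mpo (0.81), Elane (0.81), Ccr2 (0.67), Il7r (0.65) and Tlr7 (0.60).

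Siglech, Bst2, Ccr9, Cd7 and Tcf4 stood highest at day 4, as did Spib by a smaller margin, and all 7 genes stood lower at day 10 than at day 4. Ly6d at day 4 and Bst2 at day 10 overlapped their levels before IL-5. The median difference was 1.65 at day 4 against before IL-5, -1.45 at day 10 against before IL-5 and -3.10 at day 10 against day 4, while the medians over all genes were -0.11, -0.070 and 0.022. At day 4, 5 of the 7 met both conditions of the test as higher, where 3.42% of all genes did (2.11% were lower), and 6 of the 7 had arrays that were all above those before IL-5, where 15.3% of all genes did. At day 10, 5 of the 7 met the conditions as lower than before IL-5 (9.4% of all genes, with 4.83% higher), and 6 had all arrays below (31.7%). Against day 4, 7 of 7 met them as lower at day 10 (3.98%, with 2.44% higher), with all arrays below (25%). These counts describe genes chosen on the same arrays and are not evidence beyond that. In bulk RNA, fewer cells of a type and less RNA per cell cannot be told apart.

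**Figure D1:**
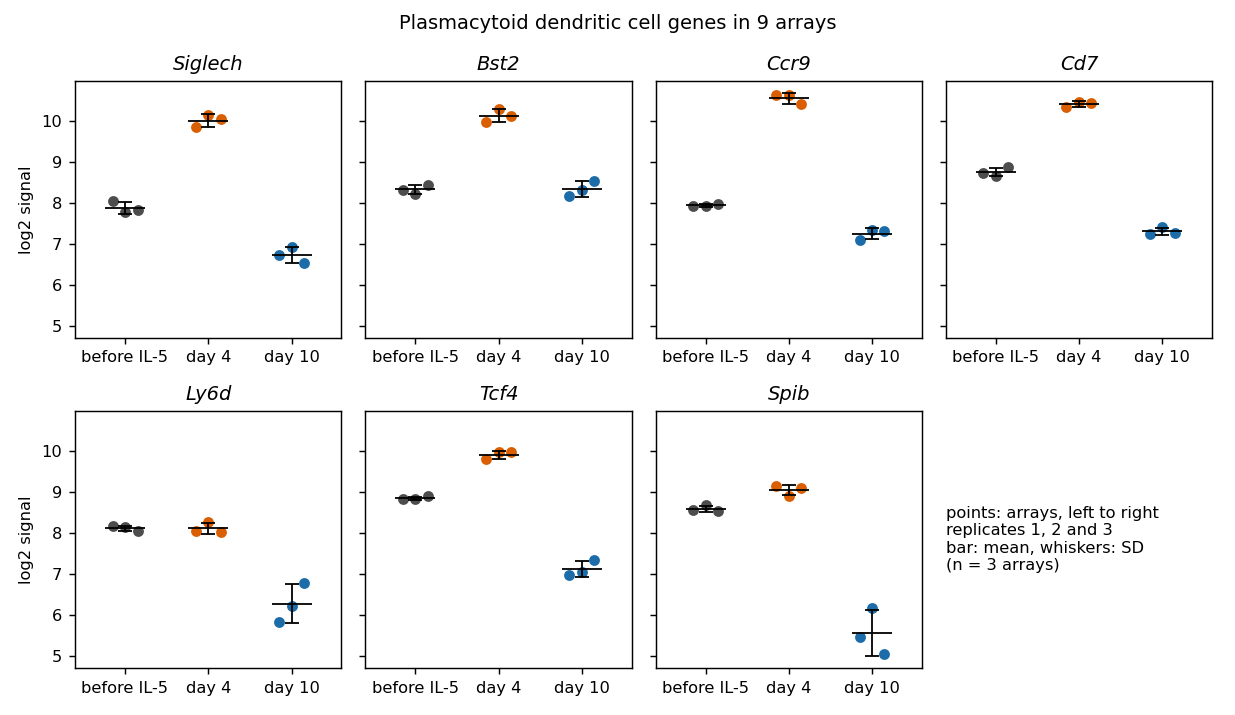
Log2 signal (vertical axis) of the 7 genes in the 3 arrays of each group, with points for arrays and bars for the mean and SD. Siglech, Bst2, Ccr9, Cd7 and Tcf4 peak at day 4, and Spib does so by a smaller margin. Ly6d lies lower at day 10 without a peak, and Bst2 ends near its starting level.

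To show what lies upstream of these genes, promoter windows were taken from RefSeq on GRCm38.p6, from 250 bases before to 50 bases after the start. The table held windows for Bst2, Siglech, Ccr9 and Spib among the genes that could be printed. They come from the reference strain C57BL/6J, not from Balb/c. Capitals mark matches on either strand to the core of the interferon response element, which is GAAA followed after any 2 bases by GAAA, and to CAGNTG, a form of the E box that E proteins such as TCF4 bind. Bst2 lies on the minus strand at chr8:71537423-71537722, Siglech on the plus strand at chr7:55767934-55768233, Ccr9 on the plus strand at chr9:123766961-123767260 and Spib on the minus strand at chr7:44532022-44532321.
Bst2: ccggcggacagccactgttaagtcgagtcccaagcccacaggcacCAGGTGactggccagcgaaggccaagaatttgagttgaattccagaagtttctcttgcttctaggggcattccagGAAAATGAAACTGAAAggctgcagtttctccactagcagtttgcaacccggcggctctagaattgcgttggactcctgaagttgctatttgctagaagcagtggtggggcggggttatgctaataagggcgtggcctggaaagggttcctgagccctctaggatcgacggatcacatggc
Siglech: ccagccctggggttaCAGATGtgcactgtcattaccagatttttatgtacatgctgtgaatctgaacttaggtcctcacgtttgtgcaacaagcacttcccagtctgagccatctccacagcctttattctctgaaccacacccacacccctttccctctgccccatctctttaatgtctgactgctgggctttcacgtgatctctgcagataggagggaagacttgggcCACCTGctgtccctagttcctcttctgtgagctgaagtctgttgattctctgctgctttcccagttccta
Ccr9: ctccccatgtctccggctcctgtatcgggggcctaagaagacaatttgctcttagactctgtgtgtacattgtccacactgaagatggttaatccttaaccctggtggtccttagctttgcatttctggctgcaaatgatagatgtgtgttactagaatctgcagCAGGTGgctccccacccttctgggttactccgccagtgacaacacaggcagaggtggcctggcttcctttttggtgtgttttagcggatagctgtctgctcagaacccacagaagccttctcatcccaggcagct
Spib: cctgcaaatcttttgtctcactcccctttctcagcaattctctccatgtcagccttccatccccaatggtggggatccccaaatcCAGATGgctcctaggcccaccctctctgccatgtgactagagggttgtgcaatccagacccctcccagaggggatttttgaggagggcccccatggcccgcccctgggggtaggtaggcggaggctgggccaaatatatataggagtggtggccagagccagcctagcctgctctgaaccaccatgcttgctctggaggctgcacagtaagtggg
Only Bst2 among these 4 windows held the interferon response element core, in 2 overlapping matches at bases 121 to 130 and 127 to 136 of the window, counted from its 5′ end. That motif was present in 3.44% of 32851 promoter windows of the same length. CAGNTG was found in all 4 windows and in 51.4% of all windows. A match describes letters, not binding.

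Siglech encodes Siglec-H, an endocytic receptor of mouse plasmacytoid dendritic cells that signals through the adaptor DAP12. Its signal was 8.04, 7.77 and 7.84 before IL-5, 9.84, 10.15 and 10.04 at day 4, and 6.73, 6.93 and 6.55 at day 10. The groups did not overlap, and the order was day 4, then before IL-5, then day 10. The mean went from 7.88 ± 0.14 to 10.01 ± 0.16 and then 6.74 ± 0.19 (SD, n = 3), which is 4.37-fold up by day 4 and 9.69-fold down from day 4 to day 10. The difference between day 10 and before IL-5 was -1.15 (SE 0.13). Over the alternatives run it lay between -1.24 and -1.01, near the 2-fold limit. The window printed above for Siglech held CAGNTG at 2 places.

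Ccr9 encodes the receptor for the chemokine CCL25, which guides plasmacytoid dendritic cells and T cell precursors to gut and thymus. It read 7.93, 7.92 and 7.98 before IL-5, 10.63, 10.64 and 10.41 at day 4, and 7.10, 7.34 and 7.32 at day 10. Again no 2 groups overlapped. Of the 7 genes Ccr9 had the largest difference at day 4, 2.62 (SE 0.11) or 6.14-fold. The difference between day 10 and before IL-5 was -0.69, or 1.61-fold lower, which does not reach the 2-fold limit, and it was -0.53 after quantile normalization. The drop from day 4 to day 10 was 9.89-fold.

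Cd7 encodes a surface glycoprotein of the immunoglobulin family found on lymphoid precursors and on many plasmacytoid dendritic cells. Its signal was 8.73, 8.67 and 8.87 before IL-5, 10.34, 10.45 and 10.45 at day 4, and 7.24, 7.40 and 7.28 at day 10. The arrays within each group were close, with SDs of 0.11, 0.065 and 0.084, and the groups lay apart. Cd7 stood 3.15-fold higher at day 4 than before IL-5, and 8.59-fold lower at day 10 than at day 4. Its difference from the starting level at day 10 was -1.45 (SE 0.099).

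Bst2 encodes tetherin, also known as PDCA-1, which marks plasmacytoid dendritic cells in resting mice, is induced by interferon in most other cells and holds budding virions at the cell surface. It read 8.33, 8.22 and 8.45 before IL-5, 9.98, 10.29 and 10.12 at day 4, and 8.17, 8.31 and 8.54 at day 10. The day 4 arrays stood above all others, and the remaining groups overlapped. The difference at day 4 was 1.80 (SE 0.12), or 3.48-fold, and the difference between day 10 and before IL-5 was 0.010 (SE 0.12). Bst2 was the only one of the 7 genes whose day 10 arrays overlapped those before IL-5. Its promoter window, printed above, is the one of the 4 with the interferon response element core.

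Ly6d encodes a small GPI-anchored protein that marks lymphoid progenitors able to form B cells and plasmacytoid dendritic cells. It showed no peak: the signal was 8.17, 8.15 and 8.05 before IL-5, 8.05, 8.27 and 8.04 at day 4, and 5.83, 6.22 and 6.79 at day 10. The first 2 groups overlapped, with a difference of 0.00052 (SE 0.19). At day 10 all arrays lay below, with a difference of -1.84 or 3.58-fold, and the SD was 0.48 against 0.066 before IL-5. That difference lay between -2.09 and -1.62 over the alternatives run.

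Tcf4, the E protein gene, had signals of 8.83, 8.83 and 8.90 before IL-5, 9.81, 9.97 and 9.97 at day 4, and 6.98, 7.05 and 7.35 at day 10. The groups did not overlap, and the order was the same as for Siglech. The difference at day 4, 1.06 (SE 0.11), was the smallest among the 5 genes that met the conditions there and lay near the 2-fold limit. Over the alternatives run it lay between 1.04 and 1.15. From day 4 to day 10 Tcf4 dropped 6.91-fold, and its difference from before IL-5 was then -1.72.

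Spib encodes an ETS family factor that plasmacytoid dendritic cells share with B cells. Its signal was 8.56, 8.69 and 8.54 before IL-5, 9.16, 8.92 and 9.10 at day 4, and 5.46, 6.18 and 5.06 at day 10. The day 4 arrays were all above those before IL-5, but by only 0.46 (SE 0.21), short of the 2-fold limit. That SE includes the day 10 spread, while the SD was 0.080 before IL-5 and 0.13 at day 4. The day 10 arrays were far below both, and Spib had the largest drop of the 7 genes, 11.3-fold from day 4 and 8.17-fold from before IL-5. The 3 day 10 arrays spread more than those of the other genes (SD 0.57), and the lowest of them, at 5.06, is close to the mark for dim genes, where robust multi-array averaging compresses changes.

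**Figure D2:**
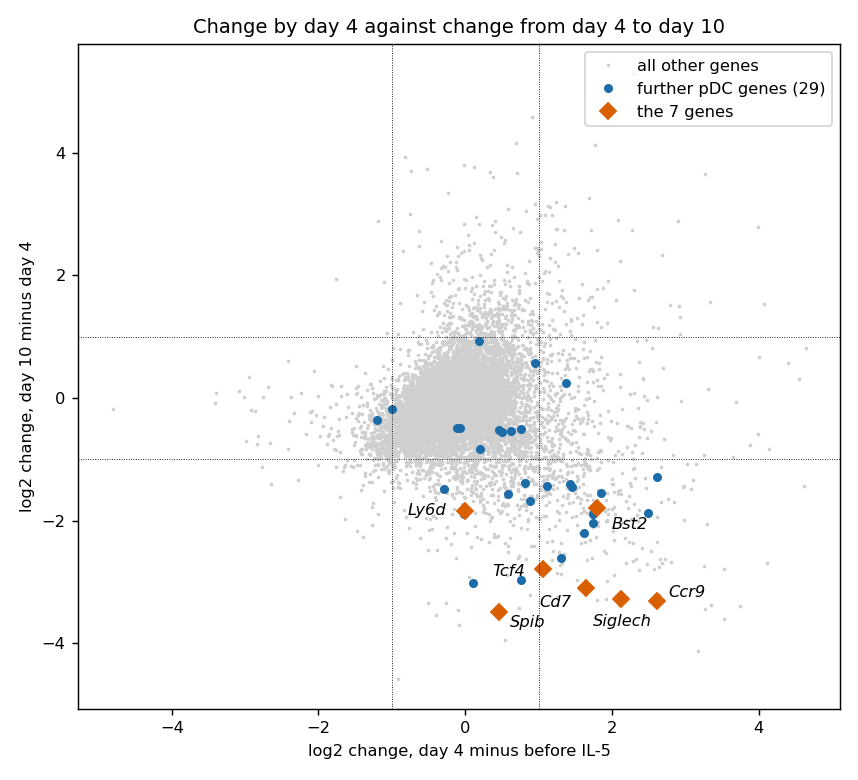
Log2 change from before IL-5 to day 4 (horizontal axis) against log2 change from day 4 to day 10 (vertical axis) for all 19938 genes, with the 7 genes as diamonds, the 29 further plasmacytoid dendritic cell genes (pDC in the plot) as blue points and dotted lines at the 2-fold limits. Siglech, Bst2, Ccr9, Cd7 and Tcf4 lie right of 1 and below -1, and Spib and Ly6d lie below -1 without reaching 1 on the horizontal axis.

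The pattern of a rise by day 4 and a fall by day 10 against day 4 was met by 280 of 19938 genes, or 1.4%. Siglech, Bst2, Ccr9, Cd7 and Tcf4 were among them. Ranked by the smaller of the rise and the fall, Ccr9 was number 15 of the 280, Siglech 29, Bst2 66, Cd7 86 and Tcf4 252. These ranks describe the choice of genes, which was made with this pattern in view.

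A list of 32 further genes known from mouse plasmacytoid dendritic cells, written from knowledge of those cells but with earlier results of these arrays known, had 29 measured genes. By day 4, 11 of them rose and 1 fell, where 3.42% and 2.11% of all genes did. The median change was 0.77 against -0.11 over all genes. The count of 11 became 12 after quantile normalization and 10 with dim genes left out, and lay between 10 and 11 with 1 array left out. Klra17, 1 of the 11, stood at 0.99 without day 4 replicate 3. The rises were led by the interferon regulatory factor Irf7 (2.62, adjusted p = 9e-08 by limma), the nucleic acid sensor Tlr7 (2.50), the inhibitory receptor Lair1 (1.85), Tlr9 (1.74), which senses DNA, and the chemokine receptor Cxcr3 (1.74). The gene that fell was Mzb1 (-1.20), a chaperone gene of antibody-secreting and plasmacytoid dendritic cells, and Dntt fell too when replicate 2 before IL-5, day 4 replicate 2 or day 4 replicate 3 was left out, which made 2. Ptprc (0.96), which encodes CD45, Dntt (-0.99), Itgax (0.89) and Atp1b1 (0.82) did not pass, though Ptprc did at 1.00 after quantile normalization. Of the 11 genes that rose, 10 fell again by day 10 against day 4, and the other one, Nucb2, stood 1.38 above its start at day 4 and 1.61 at day 10. The names of Mzb1 and Nucb2 were picked after their values were seen.

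Between day 4 and day 10, 17 of the 29 genes fell (3.98% of all genes did), with a median change of -1.40 against 0.022 over all genes. The steepest were Bcl11a (-3.02, adjusted p = 8.14e-10 by limma), a zinc finger factor needed for lymphoid and plasmacytoid dendritic cells, Irf8 (-2.96), a factor of dendritic and monocytic lineages, the lectin receptor Clec10a (-2.60) and Cd300c (-2.20). No gene of the list rose in limma's test, while 3 were higher at an unadjusted p under 0.05; without day 10 replicate 3, Cbfa2t3 passed as higher, at 1.03. Cbfa2t3 (0.93), Cd8a (-0.83), Ptprc (0.57) and Slc15a4 (-0.56) did not pass.

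Against the cells before IL-5, 7 of the 29 genes were lower at day 10 and 4 were higher, where 9.4% and 4.83% of all genes were. The median was -0.32 against -0.070 over all genes. Bcl11a (-2.92), Irf8 (-2.20), the adaptor gene Blnk (-1.90) and Plac8 (-1.78) fell the most. Those that rose were Nucb2 (1.61), Ptprc (1.52), Irf7 (1.34) and the corepressor gene Cbfa2t3 (1.12), named because they are few. Unc93b1 (-0.99), which carries Toll-like receptors to endosomes, Itgax (-0.78), Cd8a (-0.63) and Tlr7 (0.62) did not pass. Bcl11a and Irf8 thus shared with Spib and Ly6d a day 4 level short of a 2-fold change, 0.10 and 0.76, before a fall by day 10.

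**Figure D3:**
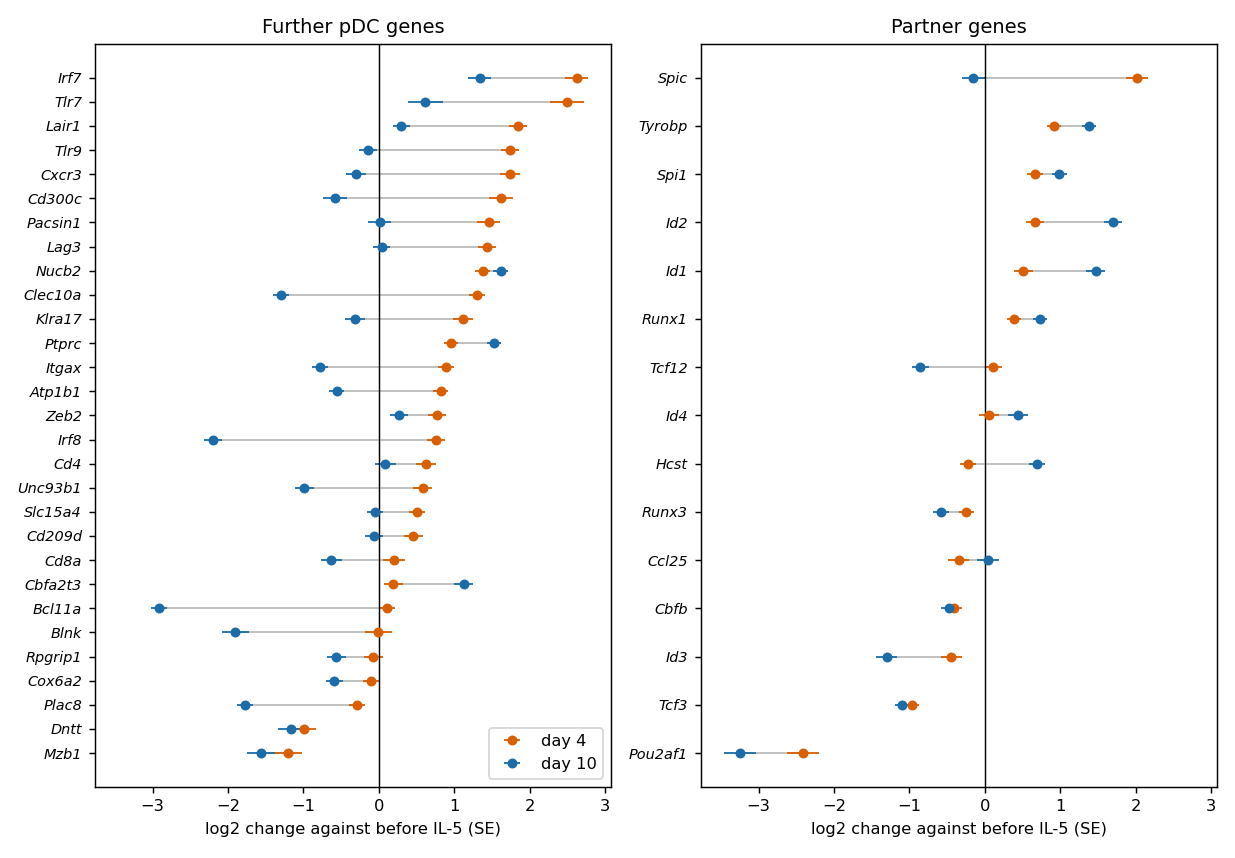
Log2 change against the cells before IL-5, with SE, at day 4 (orange) and day 10 (blue) for the 29 further plasmacytoid dendritic cell genes (left, headed pDC) and for 15 partner genes of the 7 genes (right). Most genes on the left lie higher at day 4 than at day 10, while Id1, Id2, Tyrobp and Spi1 on the right lie higher at day 10.

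Partner genes are adaptors, ligands, inhibitors and relatives of the 7 genes' products, and all 15 were measured. At day 4, 1 rose and 1 fell, and at day 10 against before IL-5, 3 rose and 3 fell, with medians of 0.061 and 0.043. Tyrobp, which encodes the adaptor DAP12 used by Siglec-H, stood 0.92 higher at day 4 and rose by 1.38 at day 10 (adjusted p = 9.37e-08 by limma), where Siglech had a difference of -1.15. The other adaptor gene, Hcst, had -0.22 and 0.69, and Ccl25, the ligand of CCR9, had -0.35 and 0.04, none of which passed. The ID genes encode inhibitors of E proteins: at day 10 Id2 rose by 1.70 (adjusted p = 8.55e-08) and Id1 by 1.47, Id3 fell by 1.30 and Id4 stood at 0.45. Between day 4 and day 10, where Tcf4 had a difference of -2.79, Id2 rose by 1.03, but by 0.97 without day 4 replicate 1 and 0.99 without day 10 replicate 1, short of the limit. Id1 (0.96) did not pass there, though it did at 1.05 after quantile normalization, at 1.04 without day 4 replicate 2 and at 1.03 without day 10 replicate 1.

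The other E protein genes lay below Tcf4's difference of 1.06 at day 4, without a test of that contrast. Tcf3 (E2A) stood at -0.97 at day 4, and passed as lower when replicate 1 before IL-5 was left out. It fell at day 10, but not after quantile normalization (-0.96). Tcf12 (HEB) had 0.11 and -0.86, neither of which passed. Among ETS relatives of Spib, Spi1 (PU.1) had 0.67 and 0.99, whereas Spic, a factor of red pulp macrophages, rose by 2.02 at day 4 (adjusted p = 5.17e-07 by limma) and fell by 2.17 from day 4 to day 10. Spi1 passed at day 10 after quantile normalization (1.08), and when replicate 2 before IL-5 (1.00), day 10 replicate 1 (1.03) or day 10 replicate 3 (1.05) was left out. Pou2af1, which encodes the B cell co-activator OBF-1 known to control Spib, fell at day 4 (-2.42) and at day 10 (-3.24). The RUNX genes Runx1 (0.38 and 0.73) and Runx3 (-0.24 and -0.58) and their partner Cbfb (-0.41 and -0.47) did not pass.

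Type I interferon is made by plasmacytoid dendritic cells, and Bst2 is a gene that responds to it. In a list of endosomal sensing and interferon production genes, 13 of 16 were measured and 5 are also in the list of further genes. At day 4 Irf7, Tlr7 and Tlr9 rose, and Irf5 (0.97), Ifnar1 (0.90), Myd88 (0.72) and Unc93b1 (0.58) did not pass; the median was 0.58. Irf5 passed at 1.03 after quantile normalization, at 1.01 without replicate 1 before IL-5 and at 1.08 without day 4 replicate 1. After day 4, Tlr9 (-1.88), Tlr7 (-1.88), Unc93b1 (-1.57) and Irf7 (-1.28) fell, and the median was -0.70. At day 10 against before IL-5 Irf7 alone passed, with a median of -0.055; Myd88 (0.93) passed at 1.02 after quantile normalization, and Unc93b1 as lower without replicate 2 before IL-5 or day 10 replicate 3. The interferon gene Ifnb1 had means of 3.84, 3.75 and 3.89, under the mark for dim genes in each group; it was named after its values were seen.

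Interferon-stimulated genes, a list of 25 with 22 measured and Bst2 left out, rose at day 4 in 20 cases, with a median of 1.67. Ifit3 (3.10, adjusted p = 1.87e-08 by limma), Oasl2 (2.97), Irf7 (2.62), which the previous lists also hold, and Rsad2 (2.53) led, and Irf9 (0.71) and Eif2ak2 (0.61) did not pass. At day 10, 9 passed as higher than before IL-5, led by Rsad2 (1.99), Ifit3 (1.77), Zbp1 (1.66) and Usp18 (1.56), and the list's median was 0.66. Ifit1, 1 of the 9 at 1.02, stood at 0.94 without replicate 1 and 0.99 without replicate 3 before IL-5. It stood at 0.93 without day 10 replicate 2 and 0.79 without day 10 replicate 3. Parp14 (0.71), Stat2 (0.67), Oasl1 (0.66) and Ifih1 (0.58) had the largest changes among those that did not pass at day 10 against before IL-5. Trim30a (-0.0056), Mx1 (-0.11), Ifitm3 (-0.25), Eif2ak2 (-0.48) and Mx2 (-0.55), the genes of the list that stood below the cells before IL-5, did not pass either. Some of these were named after their values were seen. Bst2 had differences of 1.80 at day 4 and 0.010 at day 10, within the range of the list in both comparisons. At day 4 it lay near the list's median of 1.67, and at day 10 it lay towards the lower end, below the median of 0.66. By day 10 against day 4, 13 genes fell, led by Mx1 (-2.34) and Mx2 (-2.07), with a median of -1.08; 8 fell without day 10 replicate 1. The list's mean signal was 7.97, 8.38 and 8.64 in the day 10 arrays, replicates 1 to 3, and Bst2 had its lowest and highest day 10 values in the same 2 arrays. The part of this in the Bst2 values was not tested.

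**Figure D4:**
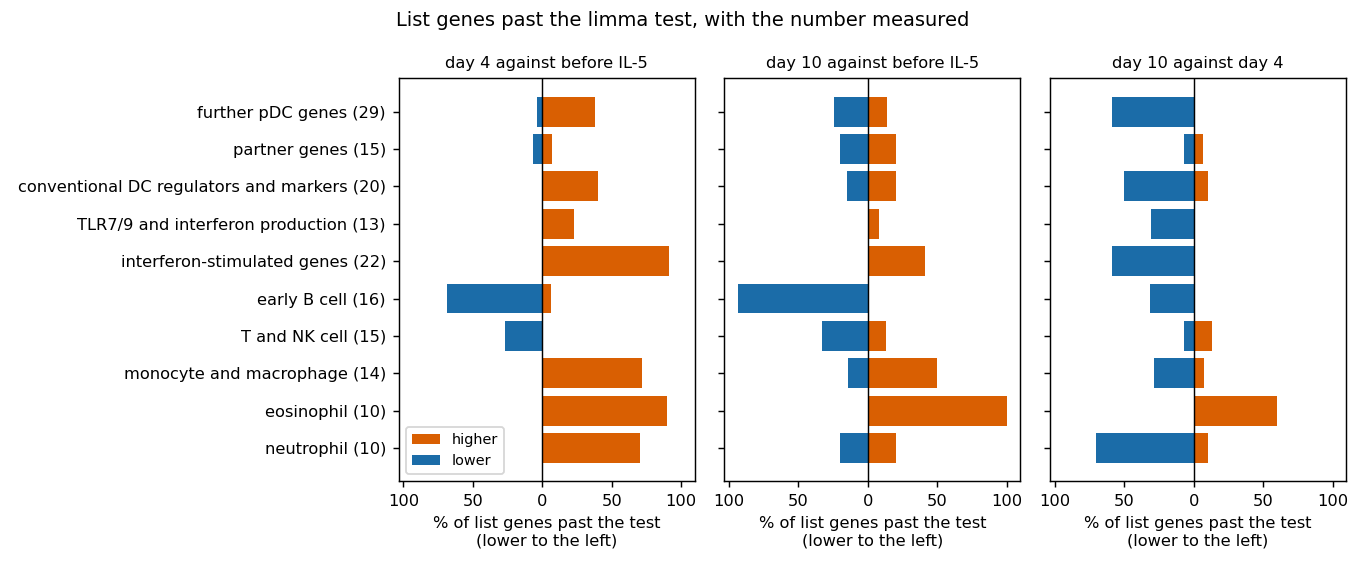
Share of measured genes (horizontal axis, in percent) of each list that passed limma's test as higher (orange, right) or lower (blue, left) in each comparison, with the number measured in brackets; pDC stands for plasmacytoid dendritic cell. Dendritic, interferon and neutrophil lists have mostly rises at day 4 and falls from day 4 to day 10, early B cell genes have mostly falls and eosinophil genes rises.

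Markers of other cell types that the cultures could hold moved as well. Conventional dendritic cell genes, all 20 measured, rose in 8 cases at day 4 (median 0.79), led by the actin bundler Fscn1 (3.53, adjusted p = 3.4e-09 by limma), the chemokine Ccl22 (3.28), the homing receptor Ccr7 (3.18) and Cd83 (2.37). The other 12 did not pass, with the largest changes in Nfil3 (0.92), Notch2 (0.84), Naaa (0.74) and Irf4 (-0.46). Nfil3 did pass, at 1.00, when replicate 3 before IL-5 was left out. Batf3 (0.27), Zbtb46 (0.23), Xcr1 (0.12) and Flt3 (-0.091), named after their values were seen, changed less. Between the days, 10 of the 20 fell and 2 rose (median -1.20), with Ccr7 at -4.12, Fscn1 at -3.60, the growth factor receptor Flt3 at -3.46 and Ccl22 at -3.44. Against before IL-5, 3 were lower at day 10, Flt3 (-3.55), Irf4 (-2.59) and Cd209a (-1.76), and 4 were higher, Sirpa (2.10), Nfil3 (2.05), Cd24a (2.00) and Notch2 (1.62), with a median of -0.35. The list's mean signal ranged from 7.31 to 7.40 before IL-5, from 8.45 to 8.51 at day 4 and from 7.06 to 7.11 at day 10, and 7 of 20 genes both rose and then fell, against 10 of 29 further plasmacytoid dendritic cell genes. The part of these genes in the values of the 7 genes was not tested.

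Early B cell genes are of interest because Spib, Ly6d and Tcf4 are used in that lineage too. Of 16 measured, 11 fell at day 4 and 15 at day 10, with medians of -1.61 and -2.30. Vpreb3 (-2.92), Rag1 (-2.82), Ebf1 (-2.65) and Cd79a (-2.64) fell the most by day 4, and Cd79a (-4.05) and Cd79b (-3.64) by day 10. The list's mean signal went from between 7.70 and 7.72 before IL-5 to between 6.07 and 6.22 at day 4, where the differences of Spib, Ly6d and Tcf4 were 0.46 (SE 0.21), 0.00052 (SE 0.19) and 1.06 (SE 0.11). Il7r rose at day 4 (1.01), although it stood at 0.99 without replicate 1 and 0.97 without replicate 3 before IL-5, and Blnk, with -0.01, did not pass. From day 4 to day 10, 5 of the 16 fell, with a median of -0.61 and a mean signal of 5.29 to 5.40 at day 10.

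T and NK cell genes, 15 measured, fell in 4 cases at day 4, led by Gzma (-1.49), Gzmb (-1.27), Cd2 (-1.23) and Eomes (-1.21). Their median changes were -0.31, -0.26 and 0.053 in the 3 comparisons, and their mean signal stayed between 5.17 and 5.80 in all arrays. Day 10 against before IL-5 had 5 falls, while Cd3g (3.21) and Cd3d (1.49) rose, and against day 4 Klrd1 fell (-1.51) and the same Cd3 genes rose. Cd7 and Ccr9, which T lineage cells also use, had differences of -3.10 and -3.31 between day 4 and day 10.

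Monocyte and macrophage genes rose in 10 of 14 at day 4 (median 2.06), with C1qc at 3.99, Mrc1 at 3.69, C1qb at 3.66 and Fcgr1 at 3.08. At day 10 against before IL-5, 7 were higher, led by Adgre1 (4.24), and Ccr2 (-1.82) and Cx3cr1 (-1.55) were lower (median 1.21); from day 4 to day 10, 4 fell and Adgre1 rose (median -0.59). Neutrophil genes rose in 7 of 10 at day 4 (median 1.48), such as Ly6g (2.62) and Ltf (2.27), and 7 fell from day 4 to day 10 (median -1.61), led by the granule genes Mpo (-3.70) and Elane (-3.53), while Ly6g rose by 1.14. At day 10 against before IL-5, Ly6g (3.77) and Mmp9 (2.33) were higher and Elane (-3.93) and Mpo (-3.78) lower, with a median of 0.025. The eosinophil list had medians of 2.50, 4.47 and 1.81 in the 3 comparisons, with Ccr3 at 5.28 and Il5ra at 3.11 between day 4 and day 10, where 6 of 10 rose. A rise by day 4 and a fall thereafter was the course of 5 of 10 neutrophil and 2 of 14 monocyte and macrophage genes. It was the course of 12 of 22 interferon-stimulated, 1 of 16 early B cell, 3 of 13 sensing and 1 of 15 partner genes. Of eosinophil genes 0 of 10 took it, and of T and NK cell genes 0 of 15, against 1.4% of all genes.

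The day 10 arrays of the 7 genes were not ordered alike. Replicate 3 was the highest of the 3 for Ly6d, Tcf4 and Bst2, and the lowest for Spib and Siglech. Replicate 3 was also highest in the mean signal of the monocyte and macrophage list (8.53, 8.38 and 9.22 in replicates 1 to 3), the neutrophil list (9.60, 9.94 and 10.28) and the interferon-stimulated list. It was highest too in the means of the further plasmacytoid dendritic cell genes (7.01, 7.03 and 7.12) and the eosinophil list (11.81, 11.82 and 11.86), where the arrays lay closer. Single further plasmacytoid dendritic cell genes spread more than that mean, such as Tlr7 (SD 0.60), Blnk (0.46), Mzb1 (0.43) and Irf7 (0.37). The part of these lists in the spread of Ly6d, Tcf4, Bst2 and Spib was not tested.

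**Figure D5:**
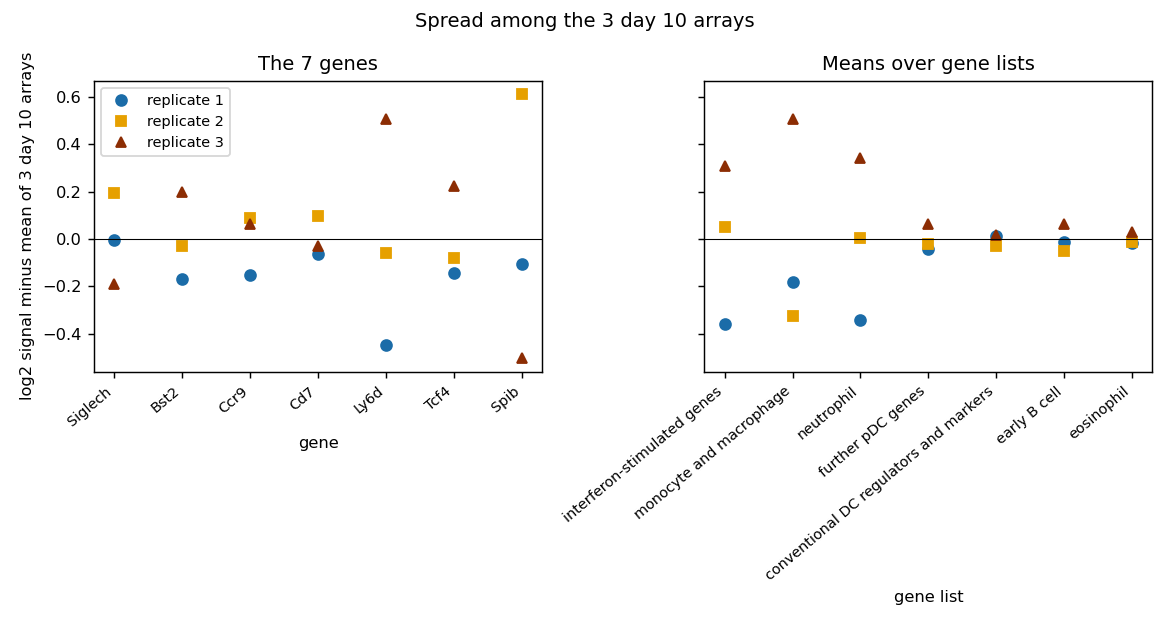
Log2 signal of each day 10 array minus the mean of the 3 day 10 arrays (vertical axis), for the 7 genes (left) and for the means of gene lists (right, pDC for plasmacytoid dendritic cell, DC for dendritic cell), with a symbol for each replicate. Spib and Ly6d spread the most on the left, with replicate 3 at opposite ends, and the monocyte and macrophage list spreads the most on the right.

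Genes with the most similar course were ranked by Pearson's r over the 9 arrays, among genes whose group means spanned at least 1. The arrays fall into 3 groups, so r here mostly reflects the order of the group means and carries no p. Siglech was closest to the invariant chain gene Cd74 (r = 0.997), followed by Ccl5 (0.994), P2rx5, Carmil1 and Pkib (0.991 each). Ccr9 was closest to Ccr7 (0.997), Strip2, Clec9a, Cd83 (0.995) and Sema6d, and Clec9a, Ccr7 and Cd83 are markers of conventional or mature dendritic cells. Cd7 was closest to Pkib (0.995), Fyn, Eno3, H2-Ea and Ciita (0.992), the last of which encodes the master activator of MHC class II genes. Tcf4 was closest to Ly86 (0.997), H2-Ab1 (0.995), Grk3, Tubgcp5 and Fgd2.

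The remaining genes had other neighbours. Bst2 was closest to Lifr (0.996), Tlr9 (0.995), Olfml2b, Nfkbiz and Cyria, of which Tlr9 is in the list of further genes. Spib was closest to Cmah (0.995), Fads2, Bcl11a (0.988), Hmgn3 and Fcnb. Ly6d was closest to Mpo (0.995), Tifa, Elane (0.992), Hk3 and Prtn3 (0.991), of which Mpo, Elane and Prtn3 encode primary granule proteins of neutrophil precursors. Mpo and Ly6d had like courses in the means too, with Mpo at 12.71, 12.63 and 8.93 in time order. Among the 7 genes themselves, r was highest for Siglech and Cd7 (0.988) and for Siglech and Ccr9 (0.981), and lowest for Bst2 and Ly6d (0.502). For deviations from the group means, r was 0.53 for Siglech and Cd7, -0.021 for Siglech and Ccr9 and 0.75 for Bst2 and Ly6d. It was highest for Bst2 and Tcf4 (0.88) and lowest for Tcf4 and Spib (-0.64). On that measure Ly6d and Mpo had 0.95, and Ccr9 and Ccr7 had 0.046.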

How the data were processed

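RNA of 9 samples was hybridised to Affymetrix mouse gene arrays. The deposited values are log2 signals per probe set, made by the authors with Affymetrix Expression Console 1.1.2637.26569, per the submitters' processing notes; the labels name the default RMA at gene level. The annotation release and further settings were not given in the sources used here. RMA compresses changes of dim genes and makes array distributions alike, and no detection calls were used. Of 35557 probe sets, 21789 naming 1 gene were used, 1621 naming several genes and 12147 unnamed here were left out, and the probe set with the highest mean stood for each of 19938 genes. Groups and replicate numbers came from the titles. The tests used limma 3.58.1 under R 4.3.3 (lmFit, eBayes, 9 arrays, 3 group means, two-sided, Benjamini-Hochberg over 19938 genes), after checks on simulated data.

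The members and the 10 gene lists (176 memberships, 164 measured) were chosen with earlier results of these data known. The named genes are the 7 genes, the partners, 5 nearest genes by correlation and genes of the lists. For each list and comparison, these were drawn from up to 4 genes with the largest changes among those past the test and up to 4 among those not past it. Not all of them are printed. In the lists of other cell types and of interferon genes, many genes not past the test were left out. Others are named, mostly where few, after their values were seen. The alternatives were quantile normalization, subtraction of array medians, a filter on dim genes, the mean of probe sets, a trend and robust variance, a replicate block, only the groups compared, and leaving out each array. Same-numbered arrays did not deviate together. Promoter windows came from RefSeq on GRCm38.p6; no coordinates of probe sets were used.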

Additional observations from a re-analysis of the deposited data

How the results depend on the processing

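With 3 arrays a group, the number of arrays limits precision. The 7 genes' differences kept their direction under every alternative run, except those near 0, Ly6d at day 4 (-0.076 to 0.053) and Bst2 at day 10 (-0.090 to 0.14), and the counts of 5 higher at day 4, 5 lower at day 10 and 7 lower between the days were the same under each. Only 2 differences moved by more than the SD between replicates, both at day 10 against before IL-5 after quantile normalization, Ccr9 to -0.53 and Cd7 to -1.30. Leaving out each array in turn gave 1 to 2 further plasmacytoid dendritic cell genes lower at day 4, 0 to 1 higher between day 4 and day 10, and 8 to 13 interferon-stimulated genes lower between the days. Leaving out 1 array, 1076 to 1157 genes passed the test at day 4, 2739 to 3004 at day 10 against before IL-5 and 1191 to 1467 between the days.

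The arrays share replicate numbers in their titles, which were used here, while the sample descriptions number some arrays differently. Same-numbered arrays share only a number: correlations of their deviations from the group means lay between -0.12 and 0.077, and 0 of 9 were over 0.1. With the replicate number as a block, 1103, 2842 and 1282 genes passed against 1102, 2839 and 1281 without the block.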
